A study of Mus musculus with 8 samples.

Results

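The 37 genes described here encode the contractile lattice of skeletal muscle and the machinery that releases and recovers its calcium. They were chosen by name, as proteins of the sarcomere and of excitation-contraction coupling without the myosin heavy chains, and all 37 were found among the 27179 genes counted. Earlier results of these data were known when they were chosen. By role, 8 belong to the thick filament and M-band, 13 to the thin filament and its regulation, 8 to titin and the Z-disc, 6 to calcium release and uptake, and 2 to muscle energy and oxygen supply. They were measured by stranded mRNA sequencing of whole spine from mouse embryos at E18.5, shortly before birth. The embryos were wild type (WT) or carried the Pax1-Enh knockout (KO), in both sexes, giving male WT, male KO, female WT and female KO groups of 2 libraries each. The series title describes a deleted region at Pax1, a sclerotome transcription factor gene, that is linked to sex and to adolescent idiopathic scoliosis. The labels do not say whether the libraries numbered 1 and 2 within a group came from separate embryos, so p-values measure only the spread between these samples, which may be technical. The sources used here do not give the strain, the zygosity or the coordinates of the deletion.

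A sarcomere is built from thick myosin filaments that slide along thin actin filaments, which are anchored at the Z-disc, while the thick filaments are cross-linked at the M-band and held in place by titin. A muscle action potential enters the fibre along transverse tubules, where the voltage sensor Cacna1s is coupled to the ryanodine receptor Ryr1 of the sarcoplasmic reticulum. The released calcium binds troponin C and moves tropomyosin off the actin sites that myosin binds, and the pump Atp2a1 returns it to the reticulum. Most of these proteins come in fast-fibre and slow-fibre isoforms encoded by separate genes. A late-gestation spine carries its own trunk muscles, so the tissue mixes muscle with vertebral cartilage, bone, spinal cord and other cells. In such bulk tissue, fewer muscle cells and less muscle RNA per cell cannot be told apart.

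Library totals ran from 35181518 to 48021848 counts in the 4 WT libraries and from 59722279 to 67575728 in the 4 KO libraries, so depth and genotype cannot be told apart. The smallest count of any of the 37 genes in any library was 414, for Mybpc2, and all 37 passed the filter on low counts that left 18104 genes tested. Pax1 itself lay between 17.0 and 30.4 CPM (counts scaled to library size with edgeR's TMM factors), with a log2 fold change, KO minus WT, of 0.34 (SE 0.31, edgeR adjusted p = 0.611) in males and 0.14 (SE 0.31, adjusted p = 0.869) in females. The labels do not place the deletion inside the counted transcript, so this level is no check of it. The mitochondrially encoded share of counts differed within groups, at 18.3% and 20.9% in the male WT libraries, 4.56% and 15.6% in the male KO, 5.55% and 7.27% in the female WT and 13.6% and 4.66% in the female KO. The labelled tissue was also checked for its skeletal markers, of which 6 cartilage genes summed to 4983 to 26514 CPM and 6 bone genes to 2648 to 9340.2 CPM. Of 10 heart markers, 9 were tested and together gave 19.4 to 49.5 CPM, and Nkx2-5, a defining heart transcription factor, had no count in 2 libraries and 10 counts in all.

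The 37 genes together took 4.10% and 2.19% of all counts in the male WT libraries, 4.91% and 5.30% in the male KO, 3.07% and 3.85% in the female WT and 4.66% and 3.89% in the female KO. Male WT 2 held the smallest share and male KO 2 the largest. By this share each KO pair lay above the WT pair of its sex, in females only narrowly, at 3.89% against 3.85%. The order depended on the denominator. As a share of the counts that were not mitochondrial the female groups overlapped, with 4.08% in female KO 2 and 4.16% in female WT 2, and as summed CPM both sexes overlapped, at 48590.3 and 24094 CPM in the male WT libraries, at 43328 and 58764 in the male KO, at 26866 and 37568 in the female WT and at 50332 and 33128 in the female KO. Compared per length, as CPM per kilobase of exon, the fast regulatory light chain Mylpf (6744) and skeletal actin Acta1 (5616) had the highest mean levels over the 8 libraries. They were followed by the light chain Myl1 (2335), fast troponin C Tnnc2 (1942), fast troponin T Tnnt3 (1508) and fast troponin I Tnni2 (1040.4). The order of these 6 was the same per kilobase of the longest transcript. Mylpf ranged from 3451 to 12592 and Acta1 from 2491 to 8922 CPM per kilobase, so these 2 did not differ beyond their spread. The giant proteins stood at the other end. Titin (Ttn), whose gene spans chromosome 2, 76703980 to 76982557 in GRCm38, averaged 8.35 CPM per kilobase, and the calcium release channel Ryr1 averaged 5.37, the lowest of the 37. The fast isoform exceeded its slow partner per length in the light chain and troponin pairs, with Mylpf above Myl2 (72.8), Tnnt3 above Tnnt1 (151), Tnni2 above Tnni1 (76.1) and Tnnc2 above Tnnc1 (187). The order was opposite for alpha-actinin and for myosin-binding protein C, where Actn2 (173) exceeded the fast-fibre Actn3 (57.1) and the slow form Mybpc1 (259) exceeded the fast form Mybpc2 (14.7).

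**Figure D1:**
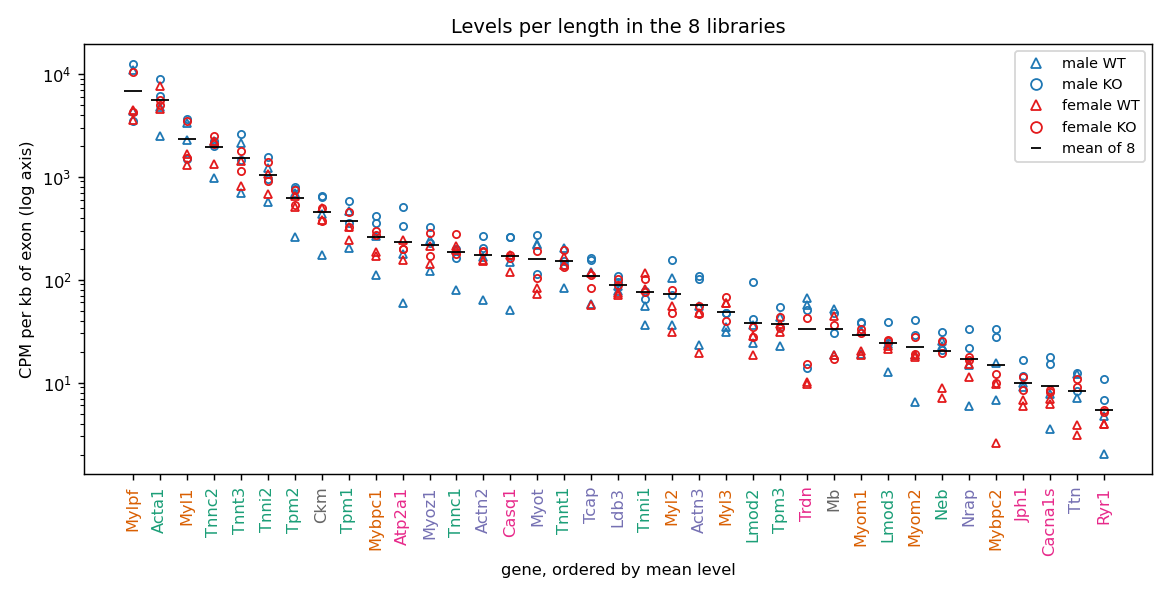
Level of each of the 37 genes in CPM per kilobase of exon (log axis) in the 8 libraries, with genes ordered by their mean (black bar) and coloured by role as in the plot of values by library. Triangles are WT and circles KO, blue male and red female. Mylpf and Acta1 sit at the left with overlapping libraries, and Ryr1 lies at the right end.

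Promoter windows from RefSeq (GRCm38.p6, 250 bases before to 50 after an annotated start) were found for 26 of the 37 genes, 32 windows in all. They are shown for 6 genes on which the results below turn: the 2 most abundant members per length, the creatine kinase Ckm, and 3 genes of calcium release and uptake. The windows were searched on both strands for CAGCTG (the E-box form bound by myogenic factors of the MyoD family), for the CArG box (bound by serum response factor) and for the MEF2 site, and the matches are in capitals, written 5' to 3' on the strand of the gene. No matches overlap in these 6 windows.
Acta1, chr8:123894726-123895025, minus strand: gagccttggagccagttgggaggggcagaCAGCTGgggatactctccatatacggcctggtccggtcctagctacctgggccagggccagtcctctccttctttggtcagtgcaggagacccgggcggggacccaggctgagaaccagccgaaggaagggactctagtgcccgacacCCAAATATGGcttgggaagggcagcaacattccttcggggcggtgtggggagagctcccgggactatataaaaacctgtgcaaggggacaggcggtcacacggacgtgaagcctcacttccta
Mylpf, chr7:127211358-127211657, plus strand: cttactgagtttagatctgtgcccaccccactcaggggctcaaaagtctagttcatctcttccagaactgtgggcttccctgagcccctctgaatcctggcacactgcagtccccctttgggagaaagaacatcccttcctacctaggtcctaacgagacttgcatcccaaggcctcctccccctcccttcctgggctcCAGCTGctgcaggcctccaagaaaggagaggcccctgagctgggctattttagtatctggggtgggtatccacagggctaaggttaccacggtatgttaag
Ckm, chr7:19410844-19411143, plus strand: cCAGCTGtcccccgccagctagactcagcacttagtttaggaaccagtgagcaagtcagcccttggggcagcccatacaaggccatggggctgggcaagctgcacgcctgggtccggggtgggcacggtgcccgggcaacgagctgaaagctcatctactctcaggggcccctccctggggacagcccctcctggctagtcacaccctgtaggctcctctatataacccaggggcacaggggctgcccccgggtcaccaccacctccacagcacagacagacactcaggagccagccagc
Cacna1s, chr1:136052561-136052860, plus strand: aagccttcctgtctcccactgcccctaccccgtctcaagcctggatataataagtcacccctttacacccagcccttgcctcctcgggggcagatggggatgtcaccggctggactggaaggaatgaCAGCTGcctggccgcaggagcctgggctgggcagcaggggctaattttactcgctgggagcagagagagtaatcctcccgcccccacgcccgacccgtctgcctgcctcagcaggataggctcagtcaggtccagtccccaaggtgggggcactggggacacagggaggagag
Atp2a1, chr7:126463024-126463323, minus strand: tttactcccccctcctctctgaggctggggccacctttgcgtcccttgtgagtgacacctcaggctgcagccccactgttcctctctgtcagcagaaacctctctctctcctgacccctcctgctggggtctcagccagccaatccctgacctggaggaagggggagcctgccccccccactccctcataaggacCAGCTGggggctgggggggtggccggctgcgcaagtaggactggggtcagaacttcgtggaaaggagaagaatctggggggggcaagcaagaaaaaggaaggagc
Ryr1, chr7:29125102-29125401, minus strand: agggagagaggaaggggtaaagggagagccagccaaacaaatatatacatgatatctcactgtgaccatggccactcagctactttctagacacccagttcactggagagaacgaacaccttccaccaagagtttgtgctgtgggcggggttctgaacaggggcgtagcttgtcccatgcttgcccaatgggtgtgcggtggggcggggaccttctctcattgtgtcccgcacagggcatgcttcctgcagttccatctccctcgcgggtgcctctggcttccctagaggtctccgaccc

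In these windows CAGCTG begins 221 bases before the Acta1 start, 51 before that of Mylpf, 249 before that of Ckm, 123 before that of Cacna1s and 55 before that of Atp2a1. The Acta1 window also holds a CArG box 73 bases before the start, and none of these letters are in the Ryr1 window. Over all windows of the 37 genes, 18 of 32 (15 of 26 genes) held CAGCTG, against 16.03% of the 22241 promoters in the table. The CArG box was in 5 of 32 (4 genes: Acta1, Ldb3, Myl3 and Myom1), against 1.56% of all promoters. Some windows of the same gene overlap. Overlapping windows of Mb, and likewise those of Tnni1, hold the same CAGCTG, and those of Ldb3 the same CArG box. The counts of windows therefore include these sites more than once, while the counts of genes do not. The MEF2 site was in 1 window, that of Ttn, against 2.64% of all promoters, and the looser E-box CANNTG, which includes every CAGCTG, was in 29 of 32 against 69.3%. A match describes the letters only and is no evidence of binding.

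The 37 genes moved together over the 8 libraries. Of 666 pairs of them, 614 had a positive Pearson correlation of log2 CPM, with a median of 0.65. Counts of these genes are therefore not counts of independent observations. In males, 34 of the 37 genes had a positive log2 fold change, KO minus WT, with a median of 0.61 against -0.06 over all 18104 genes tested, of which 45.4% were positive. The values ran from -0.94 for triadin (Trdn) to 1.83 for the calcium pump Atp2a1. Both male KO libraries lay above both male WT libraries for 21 of the 37 genes (19.7% of all genes tested did so), and only Trdn lay wholly below (23.9%). None of the 37 passed edgeR's quasi-likelihood test after Benjamini-Hochberg adjustment over all genes, in which 0% of genes were called, and the smallest adjusted p was 0.221, for Cacna1s. At an unadjusted p under 0.05 there were 12 of 37, all higher in KO, against 7.53% of all genes higher and 7.29% lower (14.8% in either direction). DESeq2 called 6 of them higher, namely Cacna1s, Atp2a1, Ryr1, Myom2, Nrap and Casq1, where it called 1.84% of all genes higher and 0.812% lower. limma voom called none. These male values lean on the library male WT 2, which was the lowest of all 8 for 22 of the 37 genes. Without it 27 of 37 were positive and their median was 0.29. Without male WT 1 the median was 1.22. The number of the 37 with an unadjusted p under 0.05 moved with these 2 libraries too.

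In females, 31 of 37 were positive (52.6% of all genes), with a median of 0.37 against 0.03 over all genes, and the values ran from -0.23 for myoglobin (Mb) to 1.54 for Trdn. Both female KO libraries lay above both female WT libraries for 16 genes (25.9% of all genes did so), and none lay wholly below (26.2%). edgeR called none after adjustment (0% of all genes), with a smallest adjusted p of 0.532. At an unadjusted p under 0.05 there were 5, Jph1, Myom1, Neb, Trdn and Ttn, all higher in KO, against 4.53% of all genes higher and 4.74% lower (9.27% in either direction). DESeq2 called Neb and Ttn higher, where it called 0.133% of all genes higher and 0.663% lower, and limma voom called none. When single libraries were dropped, 27 genes were positive with female KO 1 left out and 35 with female WT 2 left out. The median was 0.17 without female WT 1 and 0.65 without female WT 2. The number of the 37 with an unadjusted p under 0.05 moved as well.

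Over both sexes, 36 of 37 were positive (48.9% of all genes), with a median of 0.50 against -0.01 over all genes, from -0.04 for Mb to 1.15 for Mybpc2. All 4 KO libraries lay above all 4 WT libraries for 8 genes, Actn2, Cacna1s, Ldb3, Lmod3, Mybpc1, Myom2, Nrap and Ryr1, which compares with 1.68% of all genes. None lay wholly below, against 1.63%. After adjustment edgeR called none (0% of all genes), with a smallest adjusted p of 0.640, for Jph1, and 11 of 37 had an unadjusted p under 0.05, all higher in KO, against 2.84% of all genes higher and 3.99% lower (6.83% in either direction). DESeq2, which called 0.16% of all genes higher and 0.619% lower, called none of the 37, and neither did limma voom. In the fits that left out 1 library each, 33 to 37 of the genes stayed positive. Their medians were 0.34 (without male WT 2) to 0.70 (without male WT 1), and the number with an unadjusted p under 0.05 moved too. Markers of other tissues also had values away from 0. The 6 cartilage markers had medians of 1.26 in males, 0.59 in females and 0.89 over both sexes, where all 6 were positive. Over both sexes 4 of them had an unadjusted edgeR p under 0.05, all higher in KO. After adjustment edgeR called none, while DESeq2 called 1 higher in males, against 1.84% of all genes. Their summed level stood at 8704 and 4983 CPM in the male WT libraries, at 26514 and 11412 in the male KO, at 11169 and 5637 in the female WT and at 10278 and 17855 in the female KO, with overlap between genotypes in females. The part of tissue makeup in the muscle values was not tested.

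**Figure D2:**
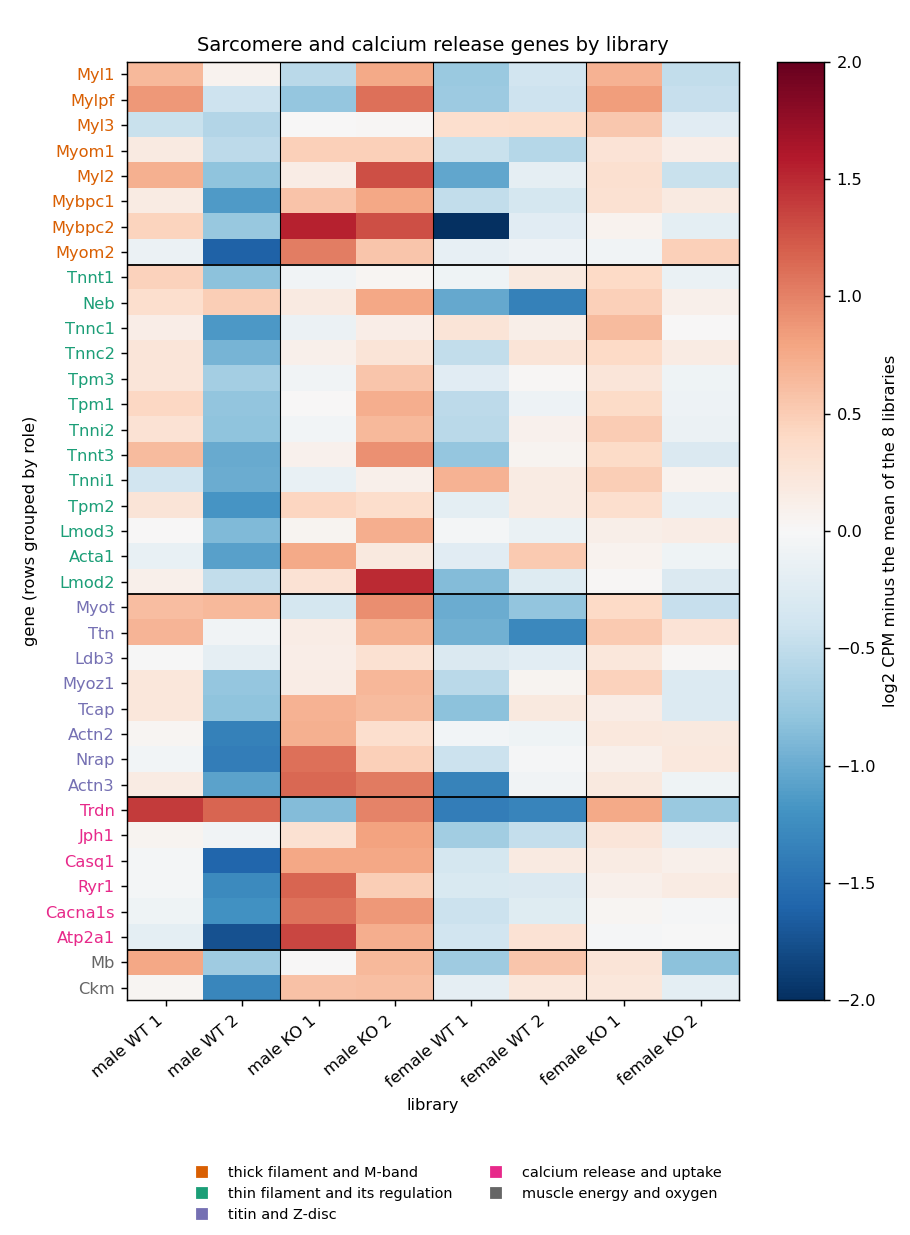
Log2 CPM of each gene in each of the 8 libraries minus the gene's mean over the 8 (colour scale from -2 to 2), with genes grouped by role. Male WT 2 is the lowest column for 22 genes and male KO 2 the highest for 19, while Trdn, Myot, Ttn and Neb are low in both female WT libraries.

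**Figure D3:**
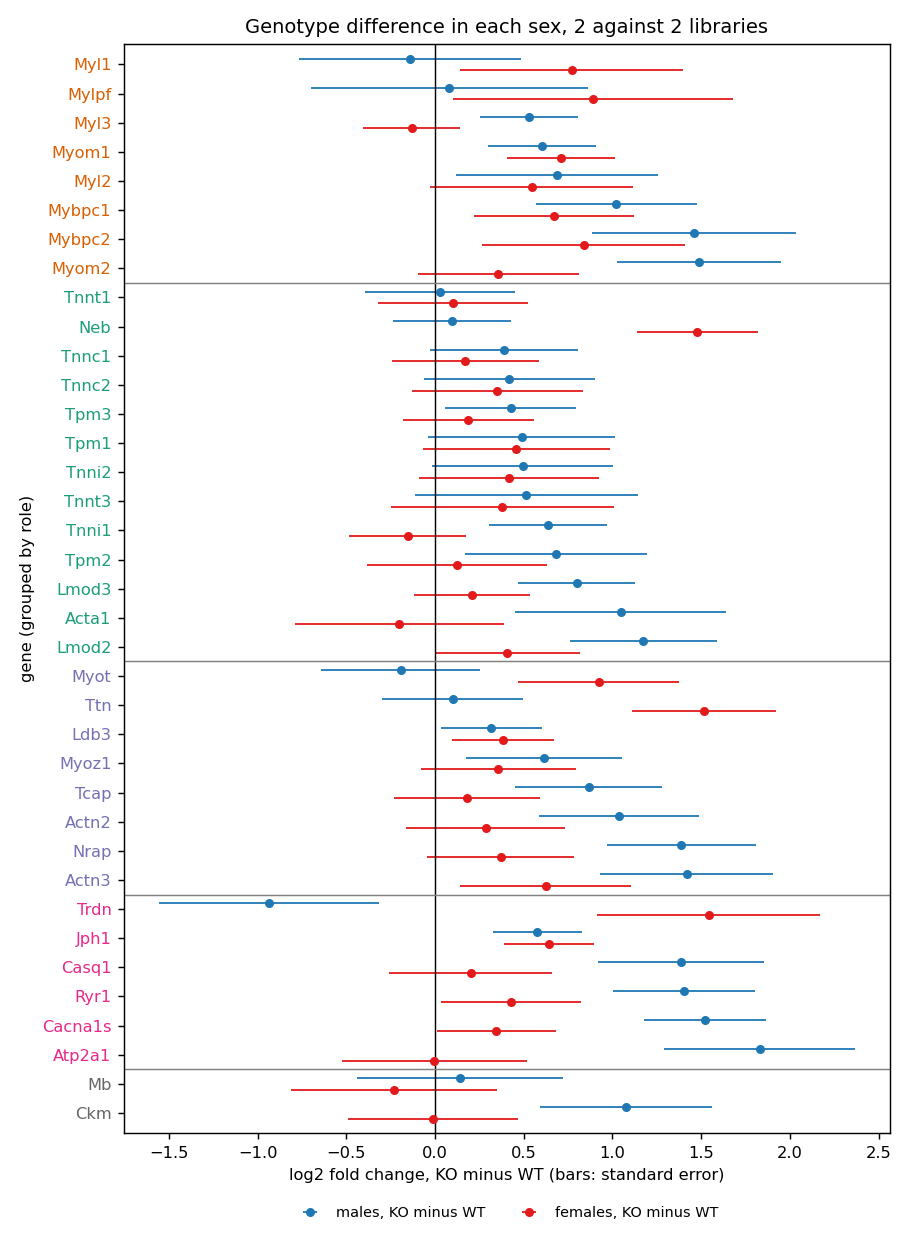
Log2 fold change, KO minus WT, of each gene in males (blue) and females (red), with bars of 1 standard error, from the edgeR fit of 2 against 2 libraries per sex. Most male values lie to the right of 0 with Trdn to the left, and the largest female values are those of Trdn, Ttn and Neb.

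The calcium release and uptake genes had the largest male median of the 5 role groups, 1.39, against 0.39 in females and 0.85 over both sexes. Of these 6 genes, 5 were positive in each sex and all 6 over both. At an unadjusted p under 0.05 there were 5 in males and 2 in females, against 7.53% and 4.53% of all genes higher. edgeR called none after adjustment, while DESeq2 called Cacna1s, Atp2a1, Ryr1 and Casq1 higher in males. Dropping male WT 2 gave a male median of 0.87, and dropping male WT 1 gave 2.17. Atp2a1, the fast-fibre pump that returns calcium to the reticulum, was at 614 and 208 CPM in the male WT libraries, at 1772 and 1154 in the male KO, at 538 and 854 in the female WT and at 691 and 696 in the female KO. Both male KO libraries lay above all other libraries, and the female groups overlapped. In males Atp2a1 had a log2 fold change of 1.83 (SE 0.54), in females of -0.01 (SE 0.52) and over both sexes of 0.91 (SE 0.49), the last with an edgeR adjusted p of 0.771. Cacna1s, the voltage-sensing channel subunit of the transverse tubule, was at 51.1 and 23.4 CPM in the male WT libraries, at 115 and 98.4 in the male KO, at 40.2 and 45.6 in the female WT and at 55.9 and 53.0 in the female KO. All 4 KO libraries lay above all 4 WT libraries, the male KO pair highest. Cacna1s had log2 fold changes of 1.52 (SE 0.34) (males), 0.34 (SE 0.34) (females) and 0.93 (SE 0.31) (both sexes, edgeR adjusted p = 0.65). In males the edgeR adjusted p was 0.221 and the DESeq2 adjusted p 0.00354, and over the 17 alternative fits it ran from 0.00354 to 0.734, the latter without male WT 2.

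Ryr1, the release channel itself, was at 103 and 43.8 CPM in the male WT libraries, at 238 and 149 in the male KO, at 85.8 and 86.4 in the female WT and at 113 and 119 in the female KO, with the 4 KO libraries again above the 4 WT libraries. For Ryr1 the log2 fold change was 1.40 (SE 0.40) in males, 0.43 (SE 0.39) in females and 0.92 (SE 0.32) over both sexes, where edgeR's adjusted p was 0.683. Calsequestrin 1 (Casq1), which stores calcium inside the reticulum, ranged over 99.3 to 512 CPM and had log2 fold changes of 1.39 in males and 0.20 in females. Jph1, the junctophilin that holds tubule and reticulum membranes together, had the smallest p over both sexes of the 37. Its level stood at 49.6 and 45.2 CPM in the male WT libraries, at 58.6 and 82.9 in the male KO, at 29.3 and 34.2 in the female WT and at 56.3 and 42.6 in the female KO. Each KO pair lay above the WT pair of its sex, but male WT and female KO overlapped. In males Jph1 had a log2 fold change of 0.58 (SE 0.25), in females of 0.64 (SE 0.25) and over both sexes of 0.61 (SE 0.18), the last with an edgeR adjusted p of 0.64. Trdn, which anchors calsequestrin to the ryanodine receptor, followed another order and is described with the other low-GC genes.

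The thick filament and M-band genes had medians of 0.65 in males, 0.69 in females and 0.64 over both sexes. Of these 8 genes, 7 were positive in each sex and 8 over both, and 4 had an unadjusted p under 0.05 over both, all higher in KO (2.84% of all genes were). edgeR called none in either sex or over both, and DESeq2 called Myom2 in males. Leaving out male WT 2 gave a male median of 0.38, leaving out male WT 1 one of 1.32, and leaving out female KO 1 a female median of 0.36. Mylpf, the fast regulatory light chain, was at 11444 and 4673 CPM in the male WT libraries, at 3665 and 13372 in the male KO, at 3767 and 4693 in the female WT and at 11120.3 and 4559.6 in the female KO. It was high in 1 library of each KO pair and in male WT 1, so every pair of groups overlapped. Mylpf had log2 fold changes of 0.08 (SE 0.78) (males), 0.89 (SE 0.79) (females) and 0.49 (SE 0.55) (both sexes, edgeR adjusted p = 0.942). Myl1, the fast essential light chain, showed the same spread, 2673 to 7533 CPM, with -0.14 in males and 0.77 in females. The slow light chains Myl2 and Myl3 had 0.69 in males and 0.54 in females, and 0.53 in males and -0.13 in females, in that order.

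Myom1, a myomesin that cross-links thick filaments at the M-band, was at 328 and 200.1 CPM in the male WT libraries, at 399.8 and 402 in the male KO, at 212 and 195 in the female WT and at 350.5 and 315 in the female KO. The KO pair lay above the WT pair in each sex, and 1 male WT library reached the female KO range. For Myom1 the log2 fold change was 0.60 (SE 0.30) in males, 0.71 (SE 0.30) in females and 0.66 (SE 0.21) over both sexes, where edgeR's adjusted p was 0.644. Its relative Myom2 ranged over 57.5 to 359 CPM with 1.49 in males and 0.36 in females, and all 4 of its KO libraries lay above all 4 WT libraries. Mybpc1, the slow myosin-binding protein C, was at 1214 and 498 CPM in the male WT libraries, at 1610.4 and 1866 in the male KO, at 769 and 848 in the female WT and at 1343 and 1226 in the female KO, with no overlap between genotypes. In males Mybpc1 had a log2 fold change of 1.02 (SE 0.45), in females of 0.67 (SE 0.45) and over both sexes of 0.85 (SE 0.31), the last with an edgeR adjusted p of 0.694. The fast form Mybpc2 was at 55.8 and 24.3 CPM in the male WT libraries, at 119.9 and 100.3 in the male KO, at 9.31 and 35.1 in the female WT and at 43.4 and 35.8 in the female KO. It was lowest in female WT 1 and highest in both male KO libraries, and male WT overlapped female KO. Mybpc2 had log2 fold changes of 1.46 (SE 0.58) (males), 0.84 (SE 0.57) (females) and 1.15 (SE 0.41) (both sexes, edgeR adjusted p = 0.683).

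Among titin and the Z-disc genes the medians were 0.74 in males, 0.38 in females and 0.59 over both sexes, with 7, 8 and 8 of 8 positive. edgeR called none, and DESeq2 called Nrap in males and Ttn in females. Without male WT 2 the male median was 0.34 and without male WT 1 it was 1.34. In females it was 0.23 without female WT 1 and 0.72 without female WT 2. Ttn, the molecular spring from Z-disc to M-band, was at 1413 and 835 CPM in the male WT libraries, at 972 and 1438 in the male KO, at 454 and 360.2 in the female WT and at 1265 and 1063 in the female KO. The low libraries were the female WT pair, and the male groups overlapped. For Ttn the log2 fold change was 0.10 (SE 0.40) in males, 1.52 (SE 0.41) in females and 0.81 (SE 0.37) over both sexes, where edgeR's adjusted p was 0.743. In females its edgeR adjusted p was 0.532 and its DESeq2 adjusted p 0.00682, within a range of 0.00682 to 1.00 over the 18 alternative fits. Actn3, the alpha-actinin of fast fibres, had the smallest p over both sexes in this group. It was at 160.3 and 67.6 CPM in the male WT libraries, at 316 and 293 in the male KO, at 56.6 and 136 in the female WT and at 162 and 135 in the female KO, highest in both male KO libraries and lowest in female WT 1 and male WT 2. In males Actn3 had a log2 fold change of 1.42 (SE 0.49), in females of 0.62 (SE 0.48) and over both sexes of 1.02 (SE 0.36), the last with an edgeR adjusted p of 0.683.

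Actn2, the alpha-actinin found in all fibres, was at 633 and 240.4 CPM in the male WT libraries, at 1011 and 778 in the male KO, at 590.2 and 579 in the female WT and at 715 and 709 in the female KO, and all KO libraries exceeded all WT libraries. Actn2 had log2 fold changes of 1.03 (SE 0.45) (males), 0.29 (SE 0.45) (females) and 0.66 (SE 0.33) (both sexes, edgeR adjusted p = 0.758). The remaining Z-disc genes were Nrap (an actin anchor at the fibre ends, 1.39 in males and 0.37 in females), Tcap (the titin cap, 0.87 in males and 0.18 in females), Myoz1 (a calcineurin-binding Z-disc protein, 0.61 in males and 0.36 in females), Ldb3 (a PDZ-LIM scaffold, 0.32 in males and 0.38 in females) and Myot (myotilin, -0.19 in males and 0.92 in females). Ldb3 varied least of all 37 genes, over 435 to 657 CPM, and still showed no overlap between the genotypes.

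The thin filament and its regulators had medians of 0.49 in males, 0.21 in females and 0.42 over both sexes, with 13, 11 and 13 of 13 positive. edgeR called none, and DESeq2 called Neb in females. These medians rested on single libraries. With male WT 2 left out they were 0.05 in males and 0.19 over both sexes, and with male WT 1 left out 1.17 and 0.65. The female one was 0.0074 without female KO 1 and 0.46 without female KO 2. Acta1, which forms the thin filament, was at 7311 and 3826 CPM in the male WT libraries, at 13704 and 9315 in the male KO, at 6983 and 11655 in the female WT and at 8552 and 7667 in the female KO. Male WT 2 was the lowest library and male KO 1 the highest, and in females the highest library was WT. For Acta1 the log2 fold change was 1.05 (SE 0.60) in males, -0.20 (SE 0.59) in females and 0.42 (SE 0.46) over both sexes, where edgeR's adjusted p was 0.937. Nebulin (Neb), which runs the length of the thin filament, was at 609 and 674 CPM in the male WT libraries, at 547 and 823 in the male KO, at 238 and 188 in the female WT and at 672 and 514 in the female KO. Both female WT libraries lay below the other 6, whose values overlapped. In males Neb had a log2 fold change of 0.10 (SE 0.33), in females of 1.48 (SE 0.34) and over both sexes of 0.79 (SE 0.33), the last with an edgeR adjusted p of 0.728. In females its edgeR adjusted p was 0.532, with a DESeq2 adjusted p of 0.00268 and a range of 0.00268 to 1.00 over the 18 alternative fits.

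Lmod2, a leiomodin that nucleates and lengthens thin filaments, had the smallest p over both sexes in the group. It was at 72.0 and 47.5 CPM in the male WT libraries, at 81.5 and 188 in the male KO, at 36.9 and 56.2 in the female WT and at 68.5 and 54.9 in the female KO, with male KO 2 far above every other library. Lmod2 had log2 fold changes of 1.17 (SE 0.41) (males), 0.41 (SE 0.41) (females) and 0.79 (SE 0.31) (both sexes, edgeR adjusted p = 0.714). Its relative Lmod3 was at 52.1 and 28.0 CPM in the male WT libraries, at 54.0 and 85.3 in the male KO, at 50.6 and 47.4 in the female WT and at 55.9 and 57.5 in the female KO, and its 4 KO libraries all exceeded its 4 WT libraries. For Lmod3 the log2 fold change was 0.80 (SE 0.33) in males, 0.21 (SE 0.33) in females and 0.50 (SE 0.25) over both sexes, where edgeR's adjusted p was 0.754. The troponin and tropomyosin genes had log2 fold changes below those of the leiomodin Lmod2 in males. For troponin T, which binds tropomyosin, the log2 fold changes were 0.51 in males and 0.38 in females for fast Tnnt3, and 0.03 in males and 0.10 in females for slow Tnnt1. For troponin C, the calcium sensor, they were 0.42 in males and 0.35 in females for fast Tnnc2, and 0.39 in males and 0.17 in females for slow Tnnc1. The tropomyosins Tpm1, Tpm2 and Tpm3 had 0.49, 0.68 and 0.43 in males and 0.46, 0.12 and 0.19 in females.

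Troponin I inhibits contraction at rest. Its fast form Tnni2 was at 1810.1 and 846 CPM in the male WT libraries, at 1425 and 2314 in the male KO, at 1017 and 1579.9 in the female WT and at 2097 and 1371 in the female KO, with male WT 2 lowest and overlap in each sex. In males Tnni2 had a log2 fold change of 0.49 (SE 0.51), in females of 0.42 (SE 0.51) and over both sexes of 0.46 (SE 0.35), the last with an edgeR adjusted p of 0.869. The slow form Tnni1 was at 199 and 131 CPM in the male WT libraries, at 233 and 279.7 in the male KO, at 419.8 and 291 in the female WT and at 365 and 274 in the female KO, with the male KO pair above the male WT pair and the highest library a female WT one. Tnni1 had log2 fold changes of 0.64 (SE 0.33) (males), -0.15 (SE 0.33) (females) and 0.24 (SE 0.26) (both sexes, edgeR adjusted p = 0.938).

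Of the muscle energy and oxygen genes, Ckm, the creatine kinase that regenerates ATP, was at 1276 and 505 CPM in the male WT libraries, at 1867 and 1893 in the male KO, at 1095 and 1463 in the female WT and at 1449 and 1089 in the female KO. The male KO pair lay above all other libraries, and the female groups overlapped. For Ckm the log2 fold change was 1.08 (SE 0.48) in males, -0.01 (SE 0.48) in females and 0.53 (SE 0.38) over both sexes, where edgeR's adjusted p was 0.852. Mb, which stores oxygen, alone had a negative value over both sexes. Its level stood at 77.0 and 27.5 CPM in the male WT libraries, at 45.0 and 70.1 in the male KO, at 27.6 and 65.7 in the female WT and at 54.0 and 25.5 in the female KO, and both sexes overlapped between genotypes. The fold changes of Mb were 0.14 (SE 0.58) in males and -0.23 (SE 0.58) in females. The brown fat markers, 6 of 7 tested, together lay at 897 and 135 CPM in the male WT libraries, at 64.5 and 65.9 in the male KO, at 174 and 1885 in the female WT and at 43.0 and 54.8 in the female KO, with male WT 1 and female WT 2 highest, and their part in the Mb and Ckm values was not tested.

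The interaction, the female KO effect minus the male KO effect, had a median of -0.35 over the 37 genes against 0.03 over all genes, and 10 of 37 were positive (51.7% of all genes). None was called by edgeR (0% of all genes), with a smallest adjusted p of 0.264, nor by limma voom or DESeq2, which called 1.09% of all genes higher and 0.906% lower. At an unadjusted p under 0.05 there were 3 higher and 2 lower, against 9.61% and 7.13% of all genes (16.7% in either direction). Trdn, Ttn and Neb had positive values of 2.48, 1.42 and 1.38, and Atp2a1 and Cacna1s negative values of -1.84 and -1.18. Dropping male WT 1 gave a median of -1.10 and dropping male WT 2 gave 0.14, so its sign rested on single libraries. The number of members with an unadjusted p under 0.05 also moved with the library left out. Over 16 alternative fits the values ran from 0.76 to 1.74 for Ttn, 0.98 to 1.71 for Neb, -2.82 to -1.26 for Atp2a1 and -1.85 to -0.72 for Cacna1s, all with edgeR, voom or DESeq2 adjusted p above 0.05.

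Trdn was the gene with opposite non-overlapping orders in the sexes. It was at 620.2 and 531 CPM in the male WT libraries, at 129 and 472 in the male KO, at 91.0 and 94.1 in the female WT and at 398 and 141 in the female KO. Both male WT libraries lay above both male KO libraries, and both female WT libraries lay below both female KO libraries. Of all genes tested, 23.9% lay wholly below in the male KO pair and 25.9% wholly above in the female KO pair. The share of all genes with both orders at once was not computed. In males Trdn had a log2 fold change of -0.94 (SE 0.62), in females of 1.54 (SE 0.63) and over both sexes of 0.30 (SE 0.64), the last with an edgeR adjusted p of 0.984. The interaction was 2.48 (SE 0.88) with an edgeR adjusted p of 0.266, which ran from 0.0647 to 0.655 over 16 alternative fits. The 4 libraries with the most Trdn, male WT 1 and 2, male KO 2 and female KO 1, were also the 4 with the highest mitochondrial share of counts, at 13.6% to 20.9% against 4.56% to 7.27% in the other 4. Myotilin was ordered alike, at 483 and 495 CPM in the male WT libraries, at 249 and 606 in the male KO, at 159 and 183 in the female WT and at 419.6 and 229 in the female KO, with the same 4 libraries highest. Neb and Myl1 also had these 4 libraries highest. With the log2 mitochondrial share as a covariate, the male median of the 37 genes was 0.89 and the female median 0.33. With it the Trdn values were -0.04 in males and 1.03 in females, and the interaction was 1.07 (edgeR adjusted p = 0.313). For Myot they were 0.46 and 0.65, so the male value changed sign, and the interaction was 0.20 (adjusted p = 0.836).

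Trdn also had the lowest GC content of the 37 longest transcripts, 36.8%, and Tcap the highest, 61.3%. Across the 37 genes, which share the same libraries, Spearman's rho between log2 fold change and GC was 0.44 in males and -0.59 in females. Across all 17225 tested genes with a GC value it was 0.21 and -0.51. The 6 members lowest in GC (Trdn, Myot, Jph1, Neb, Ttn and Mybpc1) had median log2 fold changes of 0.10 in males and 1.20 in females. The 6 highest (Tnni1, Tnni2, Actn3, Acta1, Ryr1 and Tcap) had 0.96 and 0.30. The order between the sexes was thus opposite at the ends of the GC range. With an offset for transcript GC fitted in each library, a setting chosen after seeing the data, the medians were 0.13 and 0.74 for the 6 lowest and 0.98 and 0.54 for the 6 highest. Trdn had -0.47 in males and 0.74 in females with this offset, an interaction of 1.21 (edgeR adjusted p = 0.289). Under that offset 36 of 37 genes were positive in females with a median of 0.50, and all 37 were positive over both sexes with a median of 0.58, again with none called by edgeR.

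**Figure D4:**
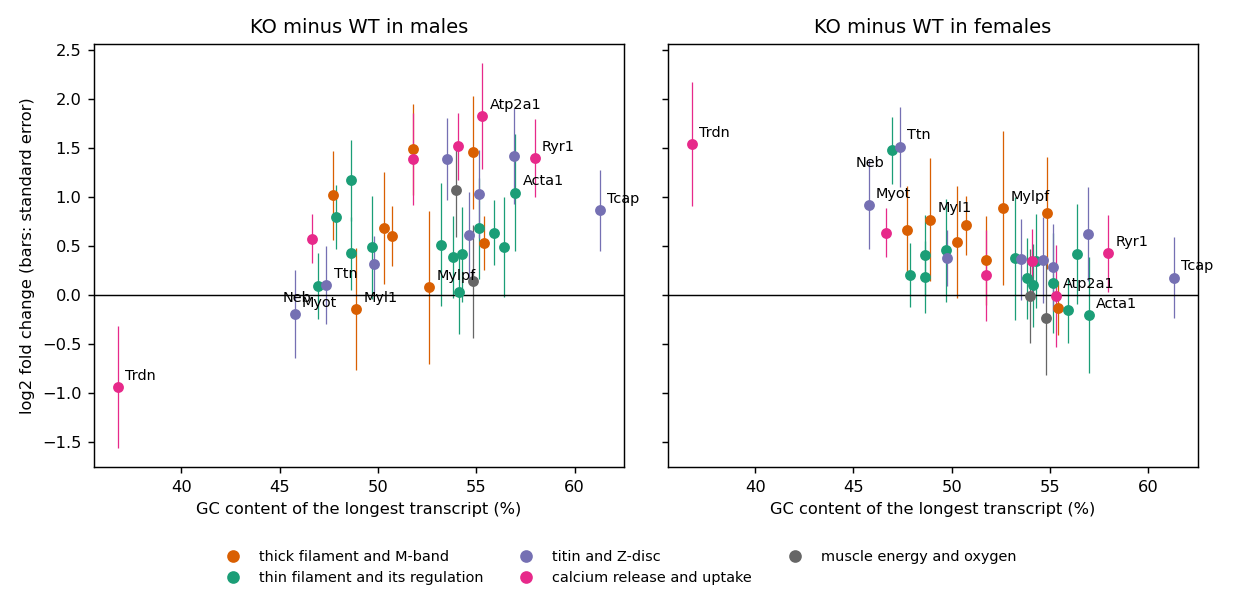
Log2 fold change, KO minus WT, of the 37 genes against the GC content (%) of the longest transcript, in males (left) and females (right), coloured by role, with bars of 1 standard error. Trdn, at 36.8% GC, is the lowest point in males and the highest in females, and Atp2a1 has the highest male value and a female value near 0.

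Sex was the other factor of the design. Over both genotypes, 7 of 37 genes had a positive female minus male value (49.5% of all genes), with a median of -0.24 against -0.0044 over all genes. This too rested on single libraries, with 17 positive and a median of -0.03 without male WT 1, and 3 positive and a median of -0.47 without male WT 2. For no gene did the 4 female and 4 male libraries separate, where 2.23% of all genes lay wholly above and 1.88% wholly below. edgeR called none of the 37 (0.0166% of all genes were called), with a smallest adjusted p of 0.481, and neither did limma voom or DESeq2, which called 0.199% of all genes higher in females and 1.1% lower. At an unadjusted p under 0.05 there were 2 higher and 5 lower, against 3.38% and 5.29% of all genes (8.67% in either direction). Tnni1 (0.71 (SE 0.27)) and Myl3 (0.52 (SE 0.22)), both slow isoforms, were among them with higher female levels. Mybpc2 (-1.16 (SE 0.41)), Myot (-0.96 (SE 0.37)), Neb (-0.90 (SE 0.33)), Lmod2 (-0.74 (SE 0.31)) and Jph1 (-0.55 (SE 0.18)) had lower female levels. The slow isoforms did not all go 1 way. Of the 6 listed, 4 were positive, while Myl2 (-0.77 (SE 0.39)) and Tpm3 (-0.07 (SE 0.26)) were negative.

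The ratio of 2 isoforms within a library does not depend on that library's total, so 9 pairs of members were compared as log2 ratios of counts (0.5 added to each). For KO against WT, 7 of 9 ratios had a positive difference, none separated the genotypes, and the smallest p in an exact two-sided permutation test of 4 against 4 was 0.114 (adjusted over the 9 pairs, 0.808), where the smallest possible p is 0.0286. That smallest p was for Tpm1 to Tpm3, whose log2 ratio was at 3.53 and 3.25 in the male WT libraries, at 3.44 and 3.54 in the male KO, at 3.07 and 3.23 in the female WT and at 3.49 and 3.35 in the female KO. The KO values lay within or just above the male WT range, and the mean difference was 0.19. Members of fast fibres as a list had medians of 0.56 in males and 0.40 in females, 8 genes, and those of slow fibres 0.48 and 0.14, 6 genes.

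The same ratios were set against sex after their values had been seen. In 7 of 9 pairs the mean ratio was lower in females, and 4 pairs did not overlap between the sexes. A pair without overlap always has the smallest exact permutation p the design allows, 0.0286 (two-sided, 4 against 4). For these 4 that p therefore restates the separation and adds nothing to it. Adjusted over the 9 pairs it became 0.0643 and so did not pass 0.05. The share of other gene pairs that separate the sexes was not computed. For Tnni2 to Tnni1, fast to slow troponin I, the log2 ratio was at 3.18 and 2.69 in the male WT libraries, at 2.61 and 3.05 in the male KO, at 1.28 and 2.44 in the female WT and at 2.52 and 2.32 in the female KO. Every female value lay below every male value, by 0.74 on average. The ratio of Actn3 to Actn2 was at -1.98 and -1.83 in the male WT libraries, at -1.68 and -1.41 in the male KO, at -3.38 and -2.09 in the female WT and at -2.14 and -2.40 in the female KO. It was lower in females by 0.78 on average, with female WT 1 the lowest.

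For Mybpc2 to Mybpc1 the ratio was at -4.44 and -4.36 in the male WT libraries, at -3.75 and -4.22 in the male KO, at -6.37 and -4.59 in the female WT and at -4.95 and -5.10 in the female KO, a female minus male difference of -1.06. Lmod3 to Lmod2 ran the other way, at -0.47 and -0.77 in the male WT libraries, at -0.59 and -1.14 in the male KO, at 0.45 and -0.24 in the female WT and at -0.29 and 0.07 in the female KO, a difference of 0.74. Leaving out 1 library at a time, the differences ran from -0.87 to -0.45 for the troponin I pair, from -0.91 to -0.48 for alpha-actinin, from -1.28 to -0.69 for myosin-binding protein C, and from 0.58 to 0.83 for the leiomodins. The end nearest 0 was in each case the value without female WT 1. The paired genes differ in transcript GC, and its part was not tested.

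**Figure D5:**
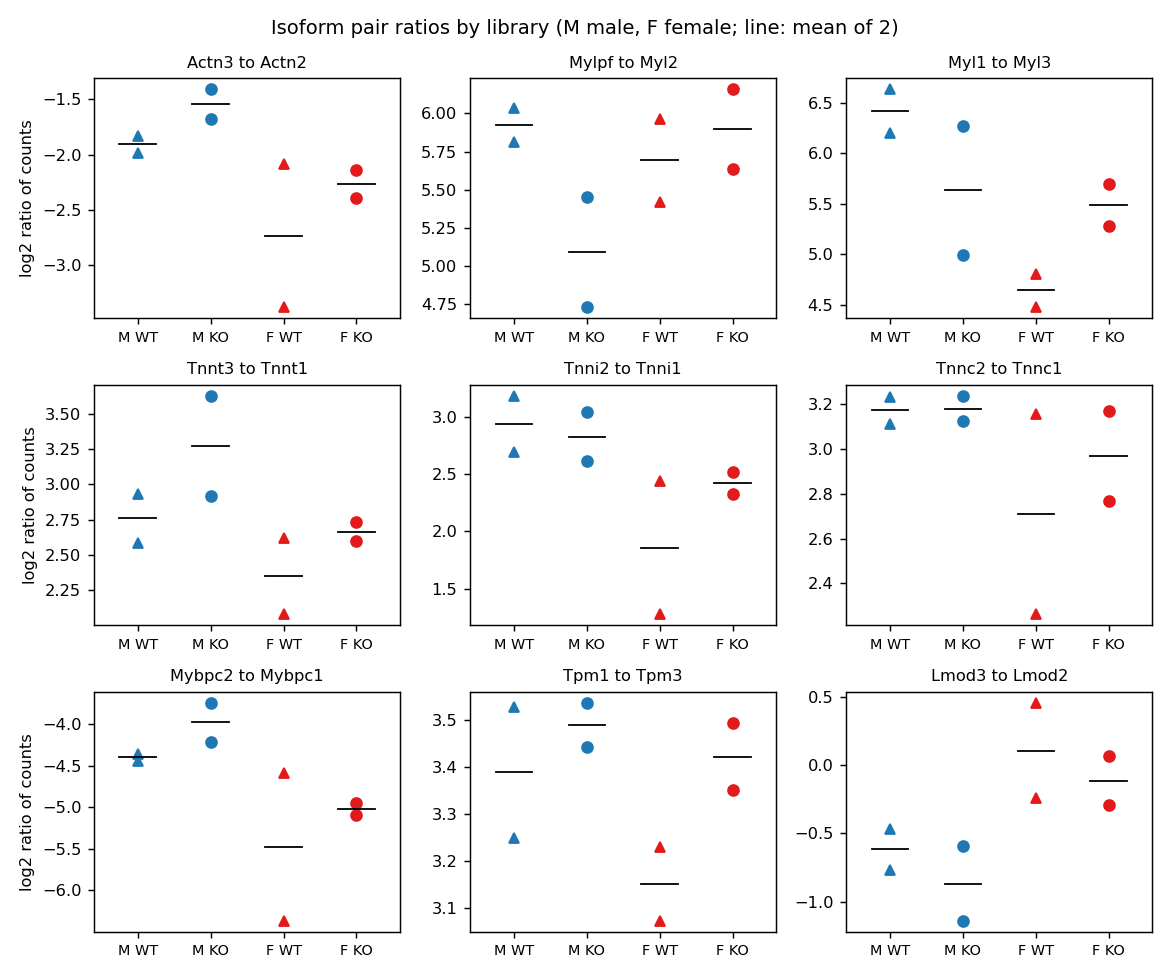
Log2 ratio of counts of 9 isoform pairs in each library, by sex (M male in blue, F female in red) and genotype (triangles WT, circles KO), with the mean of 2 libraries as a line; each panel has its own scale. The female points lie below the male points for Actn3 to Actn2, Tnni2 to Tnni1 and Mybpc2 to Mybpc1, and above them for Lmod3 to Lmod2.

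Other genes of the same structures were taken as whole lists, also chosen with earlier results of these data known. Of 29 further sarcomere genes, all 29 were positive over both sexes, with medians of 0.74 in males, 0.23 in females and 0.54 over both. Of these, 8 had an unadjusted p under 0.05 over both sexes, against 2.84% of all genes higher in KO. None passed edgeR's adjusted threshold. DESeq2 called 11 of them higher in males and 1 over both sexes, against 1.84% and 0.16% of all genes. The smallest p belonged to Cmya5, at 0.80 (SE 0.18) over both sexes, Xirp2, at 0.95 (SE 0.26), and Ankrd2, a stretch-responsive ankyrin protein, at 1.24 (SE 0.38). Of 18 further calcium release genes, 17 were positive over both sexes with a median of 0.38, and medians of 0.55 in males and 0.19 in females. None was called by edgeR, and DESeq2 called 3 higher in males, against 1.84% of all genes. Ryr3, a ryanodine receptor of developing muscle, was at 0.48 (SE 0.19), and Srl and Sypl2, proteins of the reticulum and triad, at 0.69 (SE 0.28) and 0.68 (SE 0.30).

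The 6 myosin heavy chains, which drive the thick filament, had larger medians, 1.33 in males, 1.09 in females and 1.32 over both sexes, and all 6 were positive in each sex. Adult fast Myh2 and Myh1 were at 1.64 (SE 0.35) and 1.43 (SE 0.44) and slow Myh7 at 1.20 (SE 0.35) over both sexes, none called by edgeR. DESeq2 called 2 of the 6 higher in males, 1 in females and 1 over both sexes, against 1.84%, 0.133% and 0.16% of all genes. Their summed level stood at 3278 and 1434 CPM in the male WT libraries, at 6132 and 5180.1 in the male KO, at 1865 and 1731 in the female WT and at 2639 and 3903 in the female KO, with each KO pair above the WT pair of its sex. The 10 myogenic regulators, which specify and fuse muscle cells, had medians of 0.43 in males, -0.12 in females and 0.17 over both sexes. Of these regulators, 8 were positive in males and 5 in females, against 45.4% and 52.6% of all genes. DESeq2 called 1 of the 10 higher in males, against 1.84% of all genes. Their summed level stood at 519 and 517 CPM in the male WT libraries, at 484 and 649 in the male KO, at 581 and 479 in the female WT and at 656 and 517 in the female KO, with overlap in each sex, and 7 of 10 were positive over both sexes against 48.9% of all genes. The smooth muscle markers, 9 genes, had medians of 0.18 in males and -0.04 in females. The heart markers had -1.08 and 0.15, and the neuron markers, 6 genes, -0.66 and 0.84. Among the smooth muscle markers, Des, which skeletal muscle also expresses, was counted in the further sarcomere genes too.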

How the data were processed

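Whole spine RNA of 8 libraries (male WT, male KO, female WT and female KO, 2 each) was extracted with TRIzol from crushed frozen tissue and sequenced with a stranded mRNA kit, per the labels' protocols. The authors deposited whole-number read counts per gene by Entrez gene ID, with no normalization. HISAT2, featureCounts, FastQC 1.0.0, MultiQC 1.0.0 and mm10 are named in the submitters' processing notes; the sources used here do not give the annotation, the strand setting or the handling of reads with several matches, so reads of near-identical genes may be shared. Symbols came from RefSeq (25275 genes) or GENCODE M21 (18), and 1886 IDs, with 0.365% to 1.63% of a library's counts, had none.

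Counts were filtered (filterByExpr, minimum count 10) and TMM-normalised in edgeR 4.0.16 (R 4.3.3). The KO effect in each sex came from a quasi-likelihood fit of 4 group means, with 4 residual degrees of freedom as did the difference between them, and an additive fit of sex and genotype (5 degrees) gave the effects over both. Adjusted p-values are Benjamini-Hochberg over 18104 genes with a threshold of 0.05, and all tests are two-sided. The biological coefficient of variation was 27.8%, and the median SE over all genes was 0.32 (log2) in each sex. The edgeR fit was also run on simulated counts with known fold changes. Those had the same spread for every gene and no GC or mitochondrial differences between libraries, so that run does not cover such differences. Counts of replicates differed by more than sampling noise (chi-square over its degrees of freedom 131 to 645) and were kept apart. Isoform ratios were tested by exact permutation over 70 assignments. CPM per kilobase used union exons of GENCODE M21.

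The members and lists were chosen with earlier results of these data known. All values per library are given for the member with the highest mean CPM and that with the smallest p over both sexes in each role group, and for both genes of 4 isoform pairs; Cacna1s, Ryr1, Neb, Trdn, Myot and Mb were added after their values were seen. Other genes are the 3 with the smallest p over both sexes in their list. Alternatives were DESeq2 1.42.0, limma voom 3.58.1, other size factors, no filter, the mitochondrial share as a covariate, a GC offset, a replicate block, and leaving out libraries. The replicate numbers were not taken to pair the samples in the main fits.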

Additional observations from a re-analysis of the deposited data

Results flagged for a closer look

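Trdn was flagged because both male KO libraries lay below both male WT libraries while both female KO libraries lay above both female WT libraries. Either order alone was common, at 23.9% of all genes in males and 25.9% in females. How many of all genes show both was not computed, so the pattern is not shown to be unusual. The KO effect in females exceeded that in males by 2.48 on the log2 scale (SE 0.88). edgeR's adjusted p for that difference was 0.266, so it did not pass the threshold, and over 16 alternative fits it ran from 0.0647 to 0.655. The difference was 1.07 with the mitochondrial share as a covariate and 1.21 with the offset for transcript GC, 1.55 without female KO 1 and 3.70 without male KO 2. It is reported as a value with no explanation.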

How the results depend on the processing

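None of the 37 genes was called by edgeR under any other scaling, filter, covariate, block or left-out library, or by limma voom. Only DESeq2 called any, 6 in males and 2 in females. Every member had 414 counts or more in every library. Under the alternatives, 19 of 629 member values changed sign in males (10 genes), 30 of 666 in females (12 genes) and 14 of 592 over both sexes (4 genes); the cause was not tested. The SD of the members' median between replicates was 0.44.

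Over all genes, DESeq2 called 481 in males, 144 in females, 362 for the difference between the sexes' effects, 141 over both sexes and 235 for sex, where edgeR called 0, 0, 0, 0 and 3. Without a filter edgeR called 39 in males, 1 for the difference and 12 for sex. The mitochondrial covariate gave 2 in females and 9 for sex, limma voom gave 5 for sex, and the GC offset also 5. Without male WT 1 and female WT 2 together, the 2 libraries highest in brown fat markers, there were 24 in females and 1 for the difference, and the members' median was 1.27 in males and 0.96 over both sexes. Leaving out 1 library each gave 0 to 33 genes in females (most without female WT 2), 0 to 9 for the difference and 2 to 35 for sex. The members' median then ran from 0.29 to 1.22 in males and from -1.10 to 0.14 for the difference.

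The replicate numbers were not taken to pair the samples. Differences between replicates 1 and 2 correlated at 0.146 between male WT and male KO and at -0.144 between female WT and female KO. Between the sexes they correlated at -0.359 in WT and -0.531 in KO. With 2 libraries per group these correlations cannot show whether samples were paired. With the replicate block the members' medians were 0.65 in males, 0.35 in females and 0.52 over both sexes, no member was called, and the ratio test could not go below 0.125. Crossed numbers in females, chosen after seeing the data, gave 2 calls.

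Log2 fold changes that changed sign in males were those of Myl1 (0.59 with the mitochondrial covariate, 0.23 without those 2 libraries), Myot (0.46 with that covariate) and Mylpf (-0.016 with voom). In females they were Acta1 (0.21 without those 2 libraries, 0.027 with the GC offset), Ckm (0.21 and 0.15), Atp2a1 (0.36 and 0.18, and 0.021 with voom and 0.058 with the mitochondrial covariate), Mb (0.52 without those 2 libraries), and Myl3 (0.066) and Tnni1 (0.048) with the GC offset. Over both sexes Mb gave 0.052 with voom, 0.044 with the covariate, 0.81 without those 2 libraries and 0.066 with the GC offset.

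Leaving out 1 library each, the male values that crossed 0 ran from -0.23 to 0.53 for Ttn, -0.23 to 0.36 for Neb, -0.93 to 0.37 for Myl1, -1.13 to 0.87 for Mylpf, -0.47 to 0.82 for Tnnt1, -0.081 to 1.56 for Tnnt3, -0.11 to 1.17 for Tnnc1, -0.046 to 1.12 for Tnnc2, -0.97 to 0.31 for Myot and -0.41 to 1.07 for Mb. In females they ran from -0.53 to 0.21 for Acta1, -0.57 to 0.20 for Myl3, -0.18 to 0.34 for Tnnt1, -0.40 to 0.13 for Tnni1, -0.18 to 0.46 for Tnnc1, -0.13 to 0.34 for Tpm2, -0.055 to 0.68 for Myoz1, -0.25 to 0.77 for Tcap, -0.31 to 0.36 for Atp2a1, -0.0503 to 0.49 for Casq1, -0.23 to 0.21 for Ckm and -0.87 to 0.52 for Mb. Over both sexes they ran from -0.060 to 0.61 for Myl1, -0.13 to 0.38 for Tnnt1, -0.28 to 0.88 for Trdn and -0.30 to 0.31 for Mb. Of the KO minus WT ratios, Myl1 to Myl3 ran from -0.32 to 0.40, Tnni2 to Tnni1 from -0.15 to 0.49, Tnnc2 to Tnnc1 from -0.093 to 0.24, Mybpc2 to Mybpc1 from -0.038 to 0.63 and Lmod3 to Lmod2 from -0.42 to 0.0013.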
